A study of Mus musculus with 12 samples.

Results

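MLL-AF9 leukemia cells were recovered from mice that differ in their immune system, and the cells from Rag2-/- hosts were compared with those from NSG hosts. These are 8 of the 12 RNA-seq libraries of the study, 4 for each of these hosts, chosen by the host named on the label. The other 4 libraries came from wild-type (WT) C57BL/6 hosts and served here to estimate the spread between libraries. The MLL-AF9 cells descend from mouse bone marrow progenitors transduced with the fusion gene and GFP, and were kept by repeated passage through non-irradiated mice. All 3 host groups shared this donor leukemia and were young adult females. The Rag2-/- hosts (C57BL/6J-Rag2em3Lutzy/J) carry an inactivated Rag2 gene, lack mature T and B lymphocytes and keep natural killer (NK) cells. The NSG hosts have a NOD background with the Prkdc scid mutation and no Il2rg, and lack T, B and NK cells. The presence of NK cells and the strain background changed together between these hosts, so their parts in any difference cannot be told apart. GFP+ leukemia cells were taken from the bone marrow of moribund mice, and their poly-A RNA was sequenced. Each library stands for a biological replicate on its label.

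The fusion of MLL (Kmt2a) with AF9 (Mllt3) recruits transcription elongation factors to its target genes, among them Hoxa9 and Meis1, and holds myeloid progenitors in an immature, dividing state. Normal neutrophil differentiation leaves that state in steps. Promyelocytes fill the primary (azurophil) granules with myeloperoxidase and serine proteases. Myelocytes and metamyelocytes then make secondary granules with lactoferrin, and late neutrophils add gelatinase granules, S100A8 and S100A9 and the receptors for chemotaxis. C/EBP transcription factors act at many of these late granule genes.

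Values are transcripts per 1000000 (TPM), in which every library sums to the same total. They were compared as log2(TPM + 1), with a fold change given as Rag2-/- minus NSG on that scale, which understates the change of genes at low levels. Of the genes in the table, 15090 averaged 1 TPM or more across the 8 libraries and were tested with limma in a single fit of the 12 libraries. A gene was called at a Benjamini-Hochberg adjusted p below 0.05 together with a log2 fold change beyond 0.5. No read counts accompany the TPM. From the spacing of the lowest values, the depth was estimated, in units of 1000000 reads, at 8.68 to 21.4 for Rag2-/- libraries and at 9.50 to 16.6 for NSG libraries. At that depth 3 reads on a transcript of 1 kb amount to 0.499 to 1.23 TPM, so values below that rest on very few reads.

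Compared with MLL-AF9 cells from NSG mice, those from Rag2-/- mice carried more RNA of late neutrophil granule genes such as Ltf, Ngp and S100a9 and of the formyl peptide receptors Fpr1 and Fpr2. Few genes passed the limits for a call. In Rag2-/- hosts 30 genes were called higher, 0.199% of the genes tested, and 3 were called lower, 0.0199%. The 4 Rag2-/- libraries lay above or below all 4 NSG libraries for each of these 33 genes. Over all genes tested, 4.35% lay above without overlap and 2.25% lay below. The median log2 fold change over all genes was 0.01, and 53.5% of genes were above 0. An unadjusted p below 0.05 was reached by 1913 genes. The plot of fold change against level shows where the called genes sit among all others.

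**Figure D1:**
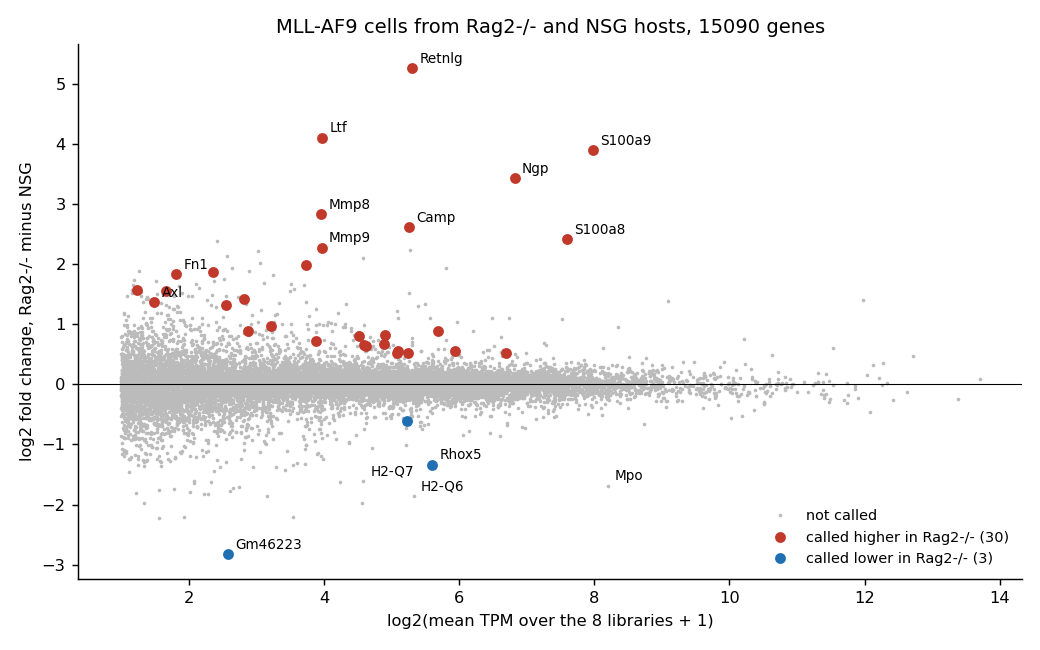
Each point is 1 of the 15090 genes tested. The horizontal axis is log2 of the mean TPM over the 8 libraries plus 1, and the vertical axis is the log2 fold change, Rag2-/- minus NSG; red points are the 30 genes called higher and blue points the 3 called lower. Retnlg, Ltf, S100a9 and Ngp stand highest at 5.26, 4.10, 3.89 and 3.43, and Gm46223 lies lowest among the called genes at -2.83.

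Genes that mark the leukemia were detected in both hosts, and none was called. Hoxa9 was at 224 ± 18.4 TPM (SD, n = 4) in Rag2-/- and 208 ± 13.8 TPM in NSG libraries, and its cofactor Meis1 at 60.5 ± 3.33 and 56.9 ± 0.75 TPM. The stem cell factor receptor Kit was at 82.9 ± 17.0 and 91.9 ± 11.1 TPM, and the progenitor antigen Cd34 at 50.04 ± 10.12 and 58.6 ± 7.75 TPM. Of 20 tested genes of the MLL-AF9 programme, none was called by limma, and the median log2 fold change was 0.07. Among them 1 (Jmjd1c) lay above without overlap, as did 4.35% of all genes. The largest decrease in this list was that of Sox4, at 53.5 ± 17.4 against 76.3 ± 17.6 TPM (log2 fold change -0.53, adjusted p = 0.339 in limma). Because the cells are of donor origin, the host genotype cannot be read from Rag2, Il2rg or Prkdc. Il2rg was at 49.5 ± 5.05 and 50.9 ± 10.2 TPM, and Prkdc at 23.5 ± 0.87 and 21.3 ± 4.80 TPM.

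The 4 genes with the largest fold changes, Retnlg, Ltf, S100a9 and Ngp, also had the lowest adjusted p-values. Their RefSeq promoter windows on GRCm38.p6, from 250 bases before the start site to 50 after it, are shown because these genes carry the main difference and because C/EBP factors act in granule gene transcription. Capitals mark matches to the C/EBP-type letters TTGCNNAA on either strand.
Retnlg, chr16:48872358-48872657, plus strand: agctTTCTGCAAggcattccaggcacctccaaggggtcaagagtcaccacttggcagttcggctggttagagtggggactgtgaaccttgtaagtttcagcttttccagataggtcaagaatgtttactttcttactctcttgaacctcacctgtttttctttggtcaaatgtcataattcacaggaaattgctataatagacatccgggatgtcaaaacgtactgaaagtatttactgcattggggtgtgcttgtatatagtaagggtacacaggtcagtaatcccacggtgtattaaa
Ltf, chr9:111019042-111019341, plus strand: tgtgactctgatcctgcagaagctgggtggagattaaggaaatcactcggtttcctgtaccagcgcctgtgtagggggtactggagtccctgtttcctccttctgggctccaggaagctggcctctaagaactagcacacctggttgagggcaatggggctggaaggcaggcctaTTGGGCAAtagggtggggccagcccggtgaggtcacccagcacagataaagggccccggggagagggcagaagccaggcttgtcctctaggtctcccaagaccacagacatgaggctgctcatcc
S100a9, chr3:90695672-90695971, minus strand: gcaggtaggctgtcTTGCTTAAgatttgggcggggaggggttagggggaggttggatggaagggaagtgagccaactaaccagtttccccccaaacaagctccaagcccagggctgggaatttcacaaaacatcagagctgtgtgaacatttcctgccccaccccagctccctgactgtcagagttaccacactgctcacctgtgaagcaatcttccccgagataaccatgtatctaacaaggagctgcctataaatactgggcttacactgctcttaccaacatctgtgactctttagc
Ngp, chr9:110419558-110419857, plus strand: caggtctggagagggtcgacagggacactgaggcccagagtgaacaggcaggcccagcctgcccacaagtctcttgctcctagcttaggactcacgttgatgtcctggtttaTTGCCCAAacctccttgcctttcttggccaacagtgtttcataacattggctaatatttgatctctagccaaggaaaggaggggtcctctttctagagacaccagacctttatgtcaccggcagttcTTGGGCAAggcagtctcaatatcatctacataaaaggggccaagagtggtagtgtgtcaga

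Of the 33 called genes, 24 had a window in the RefSeq promoter table, 23 of them called higher. At least 1 match to TTGCNNAA was found in 7 of these 23 windows (30.4%), those of Retnlg, Ltf, S100a9, Ngp, Mmp8, Tlr8 and Tlr13. Windows of the same length hold a match in 8.40% of the 9578 tested genes that were found in the table, and in 10.7% of all 27025 genes in it. The PU.1-type letters GAGGAAGT, searched on both strands, were found in 2 of the 23 windows (8.70%), those of Mmp8 and S100a8, and in 3.53% of the windows of tested genes. Among the 23, the windows of Fyb, Cybb and Ntng2 lay 56994, 18447 and 4906 bases from the annotated start of the gene. The motifs were chosen with earlier results of these data known. The matches are a description of these letters and not of bound sites.

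Ltf encodes lactoferrin, the iron-binding protein of secondary granules (ENSMUSG00000032496, chr9:111019271-111042767, GRCm38). It was at 49.1, 28.1, 26.5 and 11.5 TPM in Rag2-/- replicates 1 to 4, and at 0.521, 1.17, 0.102 and 0.597 TPM in NSG replicates 1 to 4. The lowest Rag2-/- library, replicate 4, was still far above the highest NSG library. On the log2 scale the difference was 4.10 (SE 0.37, limma adjusted p = 0.00115), and the WT libraries lay between 1.12 and 3.19 TPM.

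Ngp, neutrophilic granule protein of the cathelicidin and cystatin family (chr9:110419747-110423012), was at 301, 205, 246 and 79.0 TPM in Rag2-/- replicates 1 to 4 and at 14, 17.6, 15.5 and 18.8 TPM in NSG replicates 1 to 4. The NSG libraries were closely spaced and overlapped the WT range of 11.2 to 19.7 TPM. On the log2 scale the difference was 3.43 (SE 0.33, limma adjusted p = 0.00115).

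S100a9 (chr3:90692632-90695721) encodes a subunit of calprotectin, the calcium-binding complex that fills the neutrophil cytosol. It was at 701, 554, 494 and 148 TPM in Rag2-/- replicates 1 to 4 and at 34.1, 22.8, 17.3 and 37.9 TPM in NSG replicates 1 to 4. Again replicate 4 was the lowest of the Rag2-/- libraries without reaching the NSG range. On the log2 scale the difference was 3.89 (SE 0.40, limma adjusted p = 0.00164). S100a8, which encodes its partner and is a neighbour on chromosome 3, was at 425, 360, 429 and 107 TPM against 44.6, 53.1, 52.7 and 65.1 TPM (log2 fold change 2.42, SE 0.37, adjusted p = 0.0283 in limma).

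Retnlg, a resistin-like protein made by late neutrophils (chr16:48872621-48874496), was at 95.6, 90.0, 102 and 18.2 TPM in Rag2-/- replicates 1 to 4. In NSG replicates 1 to 4 it was at 1.82, 1.13, 0 and 0.347 TPM, which rests on an estimated 3, 2, 0 and 1 reads. The groups were far apart, while the size of the fold change depends on the pseudocount because the NSG values are so low. On the log2 scale the difference was 5.26 (SE 0.51, limma adjusted p = 0.00115), and 6.80 with a pseudocount of 0.1.

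These 4 genes, Retnlg, Ltf, S100a9 and Ngp, were the only called genes with an adjusted p below 0.01 in limma, and the only ones that kept the call whichever of the 12 libraries was left out. The other 26 genes called higher lost the call without Rag2-/- replicate 3 and also without NSG replicate 2, and 19 of the 30 had an adjusted p of 0.04 or more. Without Rag2-/- replicate 4, the log2 fold changes of the 4 genes were 5.84, 4.46, 4.38 and 3.84 in the order named above. That replicate was the lowest of its group in 23 of the 30 genes called higher and the highest in none. Without it, 78 genes were called higher and 15 lower, and without NSG replicate 3 the counts were 79 and 11. Leaving out any other Rag2-/- or NSG library lowered the count of higher genes to between 4 and 9, and a fit of the 8 libraries alone called 4 higher.

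**Figure D2:**
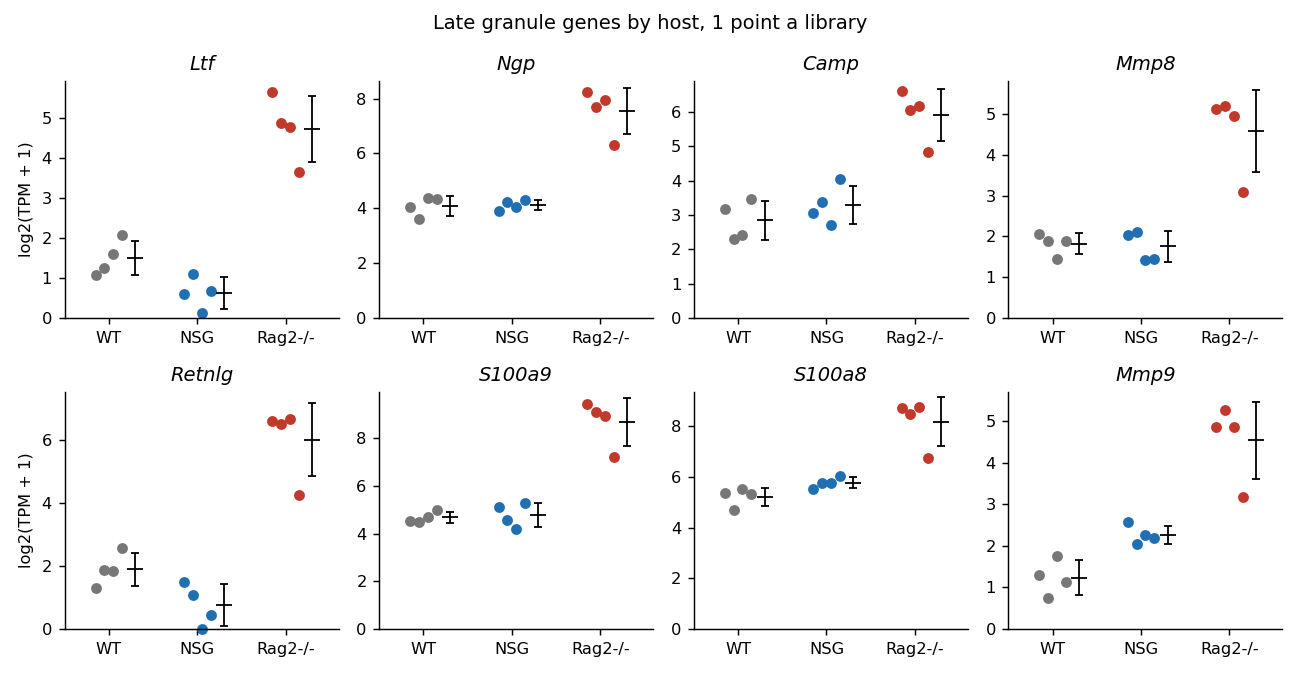
The vertical axes give log2(TPM + 1) of 8 called granule and late neutrophil genes, with 1 point for each library and, to the right of the points, the mean with SD of the 4 libraries of a host. In all panels the Rag2-/- libraries lie above the NSG and WT libraries, and the lowest Rag2-/- point is replicate 4, for instance 148 TPM against 494 to 701 TPM for S100a9.

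Secondary granule genes held 5 of the 30 genes called higher. Of 20 tested genes, 5 were called higher (Ltf, Ngp, Mmp8, Camp and Chil1) and 12 lay above without overlap. Over all genes, 0.199% were called higher and 4.35% lay above without overlap. The median log2 fold change of the list was 1.30, against 0.01 over all genes. Mmp8, the neutrophil collagenase, was at 26.7 ± 13 TPM in Rag2-/- against 2.46 ± 0.875 TPM in NSG libraries (log2 fold change 2.83, adjusted p = 0.0250 in limma). Camp, the cathelicidin antimicrobial peptide precursor, was at 64.9 ± 28.5 against 9.40 ± 4.24 TPM (2.62, adjusted p = 0.0257). Chil1, a chitinase-like granule protein, was at 2.56 ± 1.03 against 0.156 ± 0.159 TPM (1.58, adjusted p = 0.0434).

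Further secondary granule genes missed the call, several of them without overlap between the hosts. Lcn2, the siderophore-binding lipocalin, was at 402, 513, 555 and 273 TPM in Rag2-/- replicates 1 to 4 and at 208 to 227 TPM in NSG libraries (log2 fold change 0.95, adjusted p = 0.0771 in limma). Chil3, the most abundant of the list, was at 6401, 7512, 8732 and 1636 TPM against 1443 to 2782 TPM, so that Rag2-/- replicate 4 fell within the NSG range (1.40, adjusted p = 0.202). Itgb2l (1.53, adjusted p = 0.0535), Ifitm6 (1.31, adjusted p = 0.0595) and Cd177 (1.08, adjusted p = 0.0822) were further members with non-overlapping libraries. Cebpe, the transcription factor that drives this stage, was not among them, at 142 ± 17.6 against 171 ± 37.2 TPM (-0.25, adjusted p = 0.570).

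Among 18 tested genes of tertiary granules and mature neutrophils, 6 were called higher (Retnlg, S100a9, S100a8, Mmp9, Plbd1 and Cybb). Of the 18, 13 lay above without overlap and the median log2 fold change was 0.91. The shares over all genes were 0.199% called higher and 4.35% above without overlap. Mmp9, the gelatinase of tertiary granules, was at 25.4 ± 12.4 against 3.85 ± 0.77 TPM (log2 fold change 2.27, adjusted p = 0.0434 in limma). Plbd1, a phospholipase B-like granule protein, was at 3.73 ± 0.89 against 0.629 ± 0.374 TPM (1.55, adjusted p = 0.0454). Other genes of this stage were not called. The G-CSF receptor Csf3r was at 235 ± 18.7 against 219 ± 49.7 TPM (0.13, adjusted p = 0.769). Ly6g, the surface marker of mature mouse neutrophils, was at 4.26 ± 1.96 against 1.83 ± 1.32 TPM (0.92, adjusted p = 0.329). Summed over the list, the Rag2-/- libraries ranged from 1353 to 2209 TPM and the NSG libraries from 833 to 1075 TPM. In bulk RNA, more cells at a late stage and more of this RNA per cell cannot be told apart.

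Primary granule genes were not called. None of the 13 tested was called by limma, and the median log2 fold change was -0.13. Only 1 (Lyz2, lysozyme) lay above without overlap, as did 4.35% of all genes. Elane, neutrophil elastase and the most abundant of them, was at 9789 ± 915 against 11622 ± 1900 TPM (log2 fold change -0.24, adjusted p = 0.440). Mpo, myeloperoxidase, was at 121, 102, 70.1 and 287 TPM in Rag2-/- replicates 1 to 4 and at 710, 394, 219 and 444 TPM in NSG replicates 1 to 4. The ranges overlapped between Rag2-/- replicate 4 and NSG replicate 3, and the fold change of -1.69 was not called (adjusted p = 0.0956). The list sums overlapped as well, at 23646 to 27173 TPM in Rag2-/- and 23623 to 30577 TPM in NSG libraries.

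Of 20 tested transcription factors of the myeloid stages none was called by limma, with a median log2 fold change of 0.11. In this list 14 were above 0 and 4 lay above without overlap, against 53.5% and 4.35% of all genes. Cebpa was at 223 ± 13.1 against 244 ± 61.0 TPM, and Gfi1 at 232 ± 4.33 against 252 ± 16.5 TPM. Spi1, which encodes PU.1, lay without overlap at 623 ± 29.8 against 577 ± 7.04 TPM (log2 fold change 0.11, adjusted p = 0.329). Hlx (0.61, adjusted p = 0.0595) and Nr4a1 (0.81, adjusted p = 0.0954) were the members nearest to a call.

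The stefin A cluster on chromosome 16 encodes small cysteine protease inhibitors found in myeloid cells, and its copies are so alike that reads may have been divided among them, so single values are uncertain. The list of stefin A and cystatin genes had the highest median of the 40 lists, 1.45, with 0 of 10 called by limma. In it 4 lay above without overlap and 1 (Cstb) below, against 4.35% and 2.25% of all genes. Stfa1 was at 621, 1053, 1079 and 441 TPM in Rag2-/- replicates 1 to 4 and at 250 to 328 TPM in NSG libraries (log2 fold change 1.38, adjusted p = 0.0811). Cstdc5 was at 89.4 ± 43.8 against 20.8 ± 5.98 TPM (1.94, adjusted p = 0.0636). Cstb and Cst3, cystatins of many cell types, were not called, at 185 ± 2.58 against 204 ± 16.8 TPM and 846 ± 61.5 against 893 ± 90.3 TPM.

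The plot of gene lists sets these groups beside each other. The medians of the late granule and stefin lists lie far to the right, while those of the primary granule, interferon, major histocompatibility complex class I (MHC-I), ribosomal and respiratory lists lie slightly to the left of 0.

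**Figure D3:**
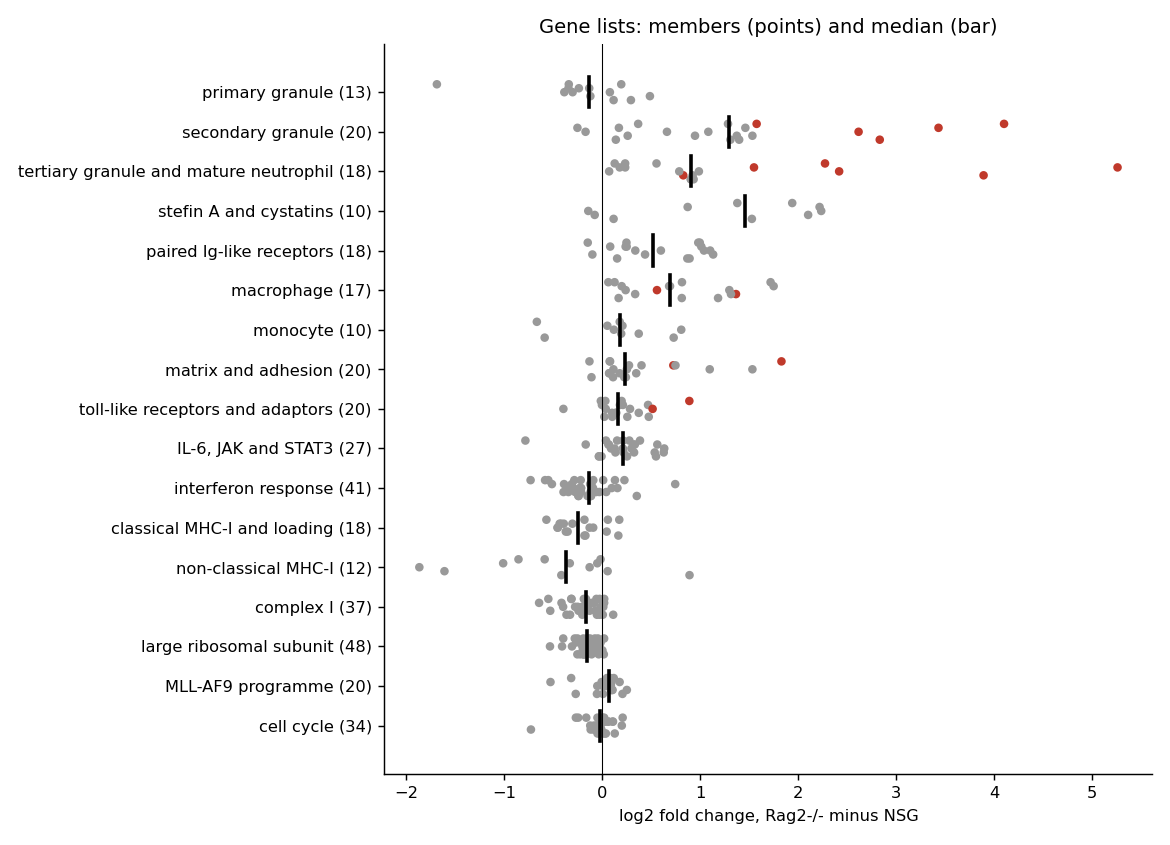
A selection of the 40 gene lists is shown. Each point is a tested gene of the list named on the left, with the number tested in parentheses, placed by its log2 fold change, Rag2-/- minus NSG; red points were called higher, grey points were not called, and the black bar is the list median. Among the lists shown, medians run from 1.45 for stefin A and cystatins and 1.30 for secondary granules down to -0.37 for non-classical MHC-I.

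Fpr1 and Fpr2, receptors that guide neutrophils to bacterial peptides, were called higher in Rag2-/- hosts. Fpr1 (chr17:17876471-17883940) was at 8.49, 7.95, 8.95 and 3.08 TPM in Rag2-/- replicates 1 to 4 and at 0.815 to 1.33 TPM in NSG libraries (log2 fold change 1.87, SE 0.27, adjusted p = 0.0250 in limma). Its neighbour Fpr2 was at 22.9, 27.4, 22.2 and 8.47 TPM against 1.80, 6.08, 4.36 and 4.69 TPM (1.99, SE 0.36, adjusted p = 0.0456). These were the 2 called genes among 13 tested formyl peptide and chemokine receptors, where the median was 0.27. The share of all genes called higher was 0.199%. Cxcr2, the receptor by which neutrophils leave the marrow, was at 6.51 ± 1.92 against 2.89 ± 0.20 TPM (0.91, adjusted p = 0.0811). Cxcr4, which holds them there, was at 632 ± 69.6 against 574 ± 24.5 TPM (0.13, adjusted p = 0.486). Cx3cr1 lay the other way, at 1.12 ± 0.38 against 2.19 ± 0.64 TPM (-0.59, adjusted p = 0.231).

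Of 20 tested Toll-like receptors and adaptors, 2 were called higher, 6 lay above without overlap and the median was 0.16. Among all genes, 0.199% were called higher and 4.35% lay above without overlap. Both called genes encode endosomal receptors for RNA and are on the X chromosome. Tlr8 was at 7.13, 10.5, 9.57 and 7.21 TPM in Rag2-/- replicates 1 to 4 and at 4.36, 3.92, 4.09 and 4.11 TPM in NSG replicates 1 to 4 (log2 fold change 0.89, adjusted p = 0.0430 in limma). Tlr13 was at 110, 131, 116 and 126 TPM against 88.9, 82.6, 89.5 and 75.9 TPM (0.52, adjusted p = 0.0250). Both lost the call in a limma fit of the 8 libraries alone, with adjusted p of 0.0876 for Tlr8 and 0.0731 for Tlr13. Tlr2, Tlr4 and Myd88 lay above without overlap at 0.47, 0.28 and 0.20, with adjusted p of 0.0595, 0.10 and 0.0825. Cybb, the catalytic subunit of the phagocyte NADPH oxidase, was called at 37.5 ± 8.60 against 20.3 ± 0.77 TPM (0.83, adjusted p = 0.0454), the only called gene of the 9 tested genes of that complex. Its membrane partner Cyba was at 1352 ± 116 against 1346 ± 224 TPM.

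Paired immunoglobulin-like receptors and their relatives set thresholds for myeloid activation. None of 18 tested was called by limma, yet 8 lay above without overlap and 0 below, with a median of 0.52. For all genes these shares were 4.35% above and 2.25% below. Pirb, an inhibitory receptor that binds MHC-I, was at 50.3, 75.0, 88.7 and 43.4 TPM in Rag2-/- replicates 1 to 4 and at 20.2, 30.5, 33.9 and 30.4 TPM in NSG replicates 1 to 4 (log2 fold change 1.10, adjusted p = 0.0535). Lilra6 was at 18.0 ± 6.54 against 7.33 ± 1.12 TPM (1.13, adjusted p = 0.0645). Gm15931, an annotated pseudogene within the same cluster on chromosome 7 (chr7:4274189-4282645), was called at 9.23 ± 2.37 against 2.90 ± 1.20 TPM (1.41, adjusted p = 0.0454). Members of the cluster resemble each other, so reads may have been divided among them. Sirpa, the receptor for Cd47, lay without overlap at 190 ± 14 against 141 ± 22.5 TPM (0.44, adjusted p = 0.103).

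Among 20 tested genes of matrix and adhesion, 2 were called higher, 9 lay above without overlap and the median was 0.23. Across all genes, 0.199% were called higher and 4.35% lay above without overlap. Fn1, fibronectin, was at 7.19, 4.34, 5.61 and 1.29 TPM in Rag2-/- replicates 1 to 4 and at 0.493, 0.516, 0.242 and 0.476 TPM in NSG replicates 1 to 4 (log2 fold change 1.83, adjusted p = 0.0456 in limma). Vcan, versican, was at 17.5 ± 3.63 against 10.08 ± 1.03 TPM (0.73, adjusted p = 0.0454). Tgfbi, a matrix protein made by monocytes and macrophages, was at 122 ± 33.7 against 56.2 ± 16 TPM (1.10, adjusted p = 0.0634). The integrin subunit Itgam (CD11b) was at 107 ± 5.57 against 84.4 ± 12 TPM (0.35, adjusted p = 0.131). Alox5, the enzyme that begins leukotriene synthesis, was near the call at 46.2 ± 16.2 against 20.1 ± 2.39 TPM (1.10, adjusted p = 0.0535), without overlap between the hosts.

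The list of tissue macrophage genes lay above 0 as a whole, with 2 genes called. All 17 tested had a fold change above 0, 11 lay above without overlap and the median was 0.69. Across all genes, 0.199% were called higher, 53.5% were above 0 and 4.35% lay above without overlap. Axl, a receptor for the uptake of dying cells, was at 5.04, 2.34, 2.35 and 2.58 TPM in Rag2-/- replicates 1 to 4 and at 0.715, 0.433, 0.421 and 0.573 TPM in NSG replicates 1 to 4 (log2 fold change 1.37, adjusted p = 0.0454 in limma). Hmox1, heme oxygenase, was at 78.4, 75.9, 74.4 and 60.6 TPM against 41.2, 51.3, 51.3 and 51.1 TPM (0.56, adjusted p = 0.0434). The complement genes C1qa, C1qb and C1qc are markers of marrow macrophages. C1qb was at 7.93 ± 3.20 against 1.56 ± 0.45 TPM (1.75, adjusted p = 0.0503), and C1qc at 4.07 ± 1.37 against 1.01 ± 0.12 TPM (1.30, adjusted p = 0.0595). Vcam1 and Adgre1 (F4/80), further macrophage markers, overlapped between hosts, at 32.2 ± 2.22 against 28.7 ± 4.69 TPM and 55.0 ± 5.21 against 53.5 ± 20.6 TPM. Summed over the list, Rag2-/- libraries lay at 637 to 750 TPM, NSG libraries at 470 to 527 TPM and WT libraries at 501 to 554 TPM. The median fell to 0.29 when each gene had to reach 1 TPM in all 8 libraries, which removes C1qa, C1qc and Axl among others.

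**Figure D4:**
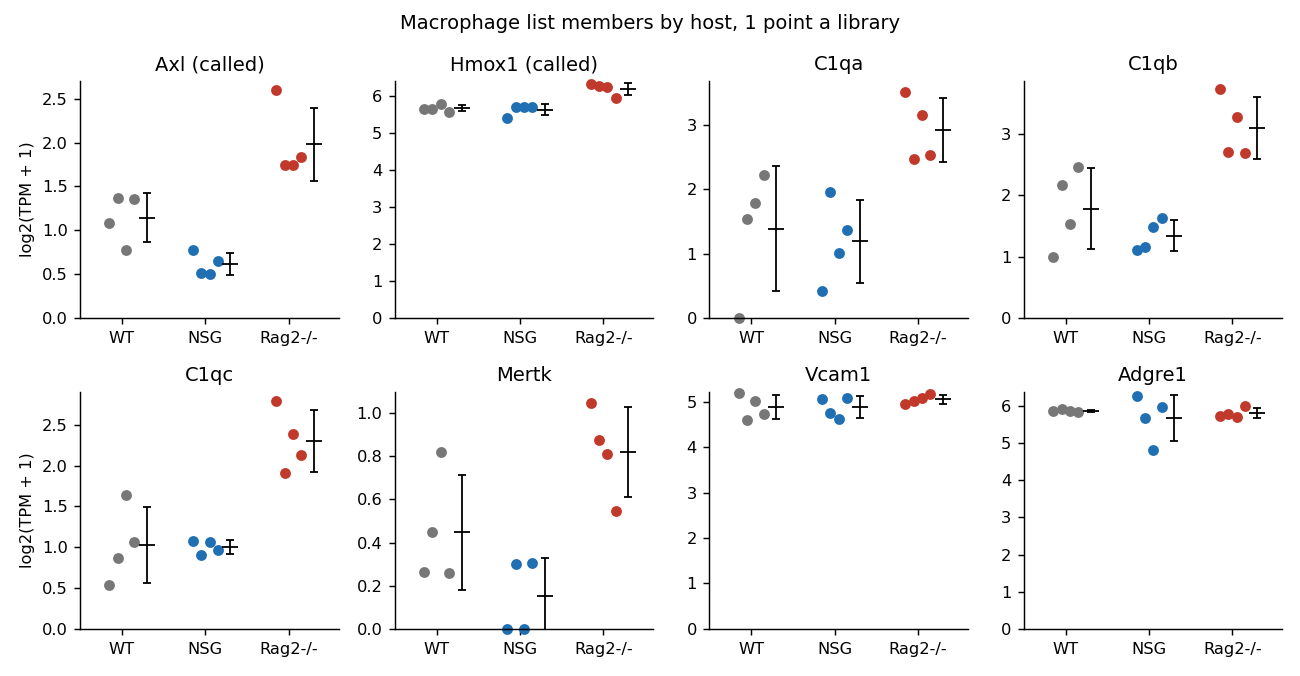
The vertical axes give log2(TPM + 1) of 8 genes of the macrophage list, 1 point for each library, with mean and SD to the right. The C1q genes and Axl separate Rag2-/- libraries from NSG libraries at low levels, for instance 2.34 to 5.04 against 0.421 to 0.715 TPM for Axl, while Vcam1 and Adgre1 overlap; Mertk was below the limit for testing.

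Monocyte genes were not called. None of 10 tested was called by limma, 8 had a fold change above 0 and the median was 0.19. In this list 1 lay above and 1 below without overlap. Across all genes, 53.5% were above 0, 4.35% lay above without overlap and 2.25% below. The list sums overlapped at 1639 to 1975 TPM in Rag2-/- and 1532 to 2020 TPM in NSG libraries. Ly6c2 was at 332 ± 114 against 516 ± 125 TPM (log2 fold change -0.67, adjusted p = 0.206) and Csf1r at 115 ± 11.8 against 106 ± 8.56 TPM.

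Defining markers of NK, T and erythroid cells were at or near 0. Of 18 NK cell genes 17 were below the limit for testing, and the list, summed, reached 6.84 to 15.5 TPM in Rag2-/- libraries and 2.05 to 9.34 TPM in NSG libraries. Ncr1, the receptor that defines NK cells, was listed at 0 in all NSG and all WT libraries and at 0.391, 0.408, 0.531 and 0.108 TPM in Rag2-/- replicates 1 to 4. Of the 17 NK cell genes below the limit, 9 were listed at 0 in all NSG libraries, 9 in all WT libraries and 2 in all Rag2-/- libraries. The mean was higher in Rag2-/- than in NSG libraries for 13 of these 17 genes. These counts were not set against all genes below the limit, so nothing is read from them. Cd3e, a subunit of the T cell receptor complex, was at 0 in all 12 libraries. Alas2, which begins heme synthesis in erythroid cells, was at 0.378 ± 0.277 against 0.518 ± 0.346 TPM. The tested erythroid genes lay the other way, with all 5 above 0 and a median log2 fold change of 0.26. None of these 5 was called by limma or lay without overlap, and the erythroid list sums overlapped between the hosts. The list of B and plasma cell genes summed to 177 to 273 TPM in Rag2-/- and 169 to 275 TPM in NSG libraries, mostly through the immunoglobulin heavy chain gene Ighm at 164 ± 33.1 and 177 ± 43.6 TPM. These Ncr1 values are of the size of very few reads. The NK cell list sums overlapped, and Nkg7, the 1 NK cell gene tested, had a log2 fold change of -0.39 (adjusted p = 0.757 in limma). Cd7, a surface protein of T and NK lineages, was at 0.294 to 1.62 TPM in Rag2-/- libraries and at 0 in all NSG and WT libraries. The macrophage list sums lay higher in Rag2-/- libraries, as did the granule genes. The part of NK cells, macrophages or other such cells in the results was not tested. Xist, transcribed from the inactive X chromosome, was at 15.5 TPM in Rag2-/- replicate 3 and at 0.882 to 2.61 TPM in the other 7 libraries.

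The remaining genes called higher belong to no single group. Olfm1, a secreted olfactomedin, was at 66.0 ± 14.3 against 34.8 ± 3.33 TPM (log2 fold change 0.88, adjusted p = 0.0389 in limma). Slc2a6, a hexose transporter of myeloid cells induced in inflammation, was at 35.4 ± 4.41 against 21.9 ± 2.31 TPM (0.67, adjusted p = 0.0257). Kdm7a, a histone demethylase, was at 28.5 ± 3.80 against 17.7 ± 1.42 TPM (0.65). Fyb, an adaptor that links receptors to integrins, was at 38.8 ± 4.18 against 26.6 ± 2.32 TPM (0.53). Ntng2 (0.64), Ripor2 (0.56) and Hacd4 (0.53) differed by similar amounts. The noncoding Gm49303 (1.31), the annotated gene Gm6169 (0.97) and CT571247.2 (0.80) completed the 30 genes. CT571247.2 lies within Dennd1c on the same strand, so reads of the 2 genes may not be separable. Ntng2 likewise overlaps 6530402F18Rik, and Fyb overlaps Gm7666, on the same strand. Of the 30 genes 27 are protein-coding, and 18 had at least 2-fold higher means in Rag2-/- than in NSG libraries.

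The same genes were compared with their WT values. Of the 30 genes called higher, 29 lay above all 4 WT libraries as well, where 10.2% of all genes tested did. The 30 genes were called because the same Rag2-/- libraries were high, so nothing is read from this count. The NSG and WT ranges overlapped in 26 of the 30, and in 95.4% of all genes tested.

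Only 3 genes were called lower in Rag2-/- than in NSG hosts. Rhox5, an X-linked homeobox gene best known from the testis, was at 25.8, 21, 23.6 and 35.0 TPM in Rag2-/- replicates 1 to 4 and at 56.5, 60.7, 97.4 and 59.4 TPM in NSG replicates 1 to 4. No Rag2-/- library came near the NSG range, and the WT libraries, at 50.7 to 74.8 TPM, overlapped it. On the log2 scale the difference was -1.33 (SE 0.19, limma adjusted p = 0.0250).

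Gm46223, a processed pseudogene on chromosome 10 (chr10:50422134-50422808), was at 0, 0.233, 0.605 and 0.493 TPM in Rag2-/- replicates 1 to 4 and at 8.53, 6.45, 4.19 and 19.5 TPM in NSG replicates 1 to 4. It was at 0 to 1.92 TPM in WT libraries, so the NSG libraries stood apart from both other hosts. On the log2 scale the difference was -2.83 (SE 0.41, limma adjusted p = 0.0250). 4930455G09Rik, annotated as an antisense transcript, was at 28.4 ± 1.73 against 44.2 ± 4.89 TPM (-0.62, adjusted p = 0.0454). No other annotated gene overlapped its span on either strand. All 3 lost the call without Rag2-/- replicate 1, 2 or 3.

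MHC-I genes encode the molecules by which NK cells recognise cells as self. No gene of this group was called by limma, and the fold changes lay mostly below 0. Of 18 tested genes of classical MHC-I and peptide loading, 14 were below 0, 4 lay below without overlap and the median was -0.24. The share of all genes below without overlap was 2.25%. H2-K1 was at 768, 930, 630 and 1021 TPM in Rag2-/- replicates 1 to 4 and at 1054, 1368, 1418 and 1088 TPM in NSG replicates 1 to 4 (log2 fold change -0.57, adjusted p = 0.121). The highest Rag2-/- library lay just under the lowest NSG library. H2-D1 was at 1120 ± 144 against 1521 ± 282 TPM (-0.43, adjusted p = 0.151), and its light chain B2m overlapped at 3638 ± 939 against 5005 ± 1363 TPM (-0.45, adjusted p = 0.362). Psme2, a proteasome activator subunit, passed the p-value limit and not the limit on the fold change, at 144 ± 9.84 against 192 ± 14 TPM (-0.42, adjusted p = 0.0454).

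Of 12 tested non-classical MHC-I genes none was called by limma, with 10 below 0 and a median of -0.37. In this list 4 lay below without overlap, against 2.25% of all genes. H2-Q6 was at 11.8, 18.4, 9.70 and 20.3 TPM in Rag2-/- replicates 1 to 4 and at 41.0, 80.9, 104 and 26.6 TPM in NSG replicates 1 to 4 (log2 fold change -1.86, adjusted p = 0.0742). H2-Q7 was at 10.5 ± 4.61 against 35.4 ± 17.3 TPM (-1.61, adjusted p = 0.10). The WT libraries, at 13.4 to 29.7 TPM for H2-Q6, overlapped both other hosts. H2-Q10 went the other way, at 95.3 ± 29.1 against 50.3 ± 14.5 TPM (0.89, adjusted p = 0.135). These H2-Q genes are close copies of each other, so the division of reads among them is uncertain. H2-T23, which encodes Qa-1, was at 112 ± 9.44 against 123 ± 16.2 TPM (-0.13, adjusted p = 0.615).

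Ligands that activate or restrain NK cells were also measured. Of 17 tested genes of NK cell ligands and checkpoints none was called by limma, and the median log2 fold change was 0.00. In this list 1 lay above without overlap, as did 4.35% of all genes. Cd47, the signal that restrains phagocytosis, was the member without overlap, at 728 ± 31.0 against 625 ± 68.6 TPM (log2 fold change 0.23, adjusted p = 0.202). Ulbp1, a ligand of the activating receptor NKG2D, was at 66.0 ± 2.63 against 71.6 ± 5.50 TPM (-0.11, adjusted p = 0.551), and the checkpoint ligand Cd274 (PD-L1) at 31.6 ± 1.94 against 29.3 ± 4.34 TPM (0.11, adjusted p = 0.678). Of 9 tested MHC class II genes none was called by limma, with a median of -0.03.

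**Figure D5:**
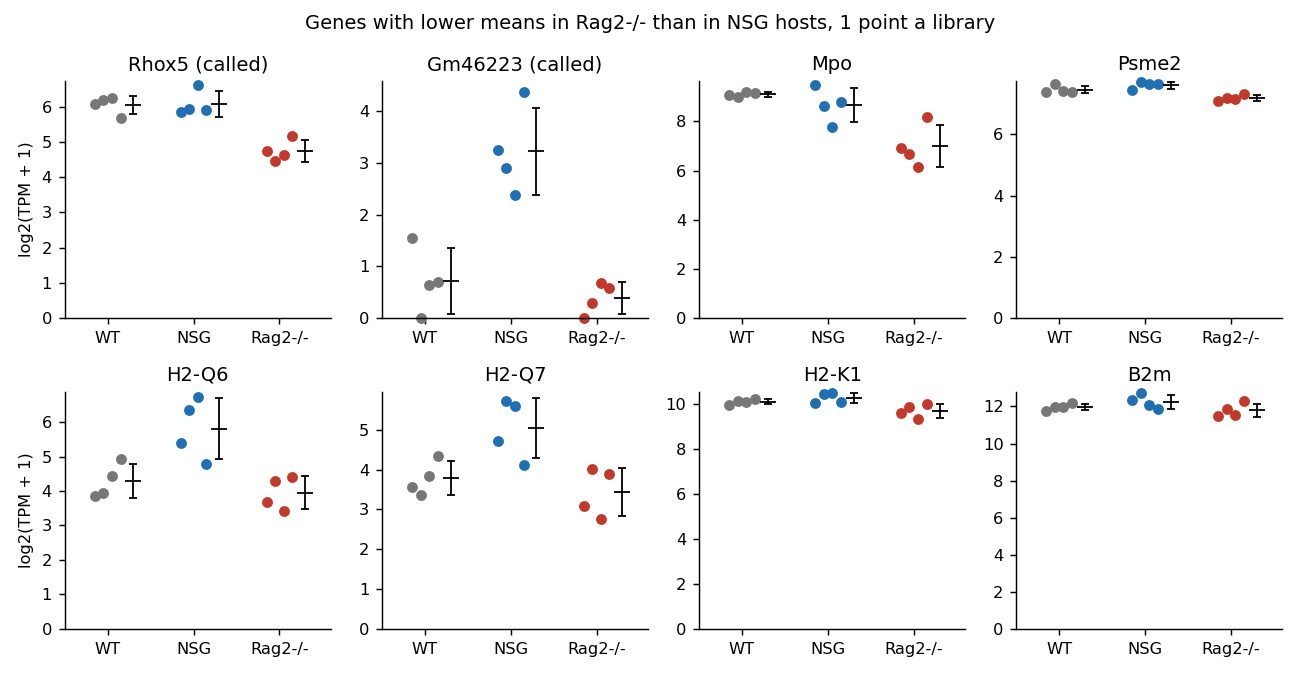
The vertical axes give log2(TPM + 1) of 8 genes with lower means in Rag2-/- than in NSG hosts, 1 point for each library, with mean and SD to the right; Rhox5 and Gm46223 were called and the others were not. The NSG points of H2-Q6 spread from 26.6 to 104 TPM, and Mpo overlaps between hosts.

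Interferon response genes lay mostly below 0. Of 41 tested, 33 were below 0, none was called by limma and the median was -0.13. In this list 1 lay below without overlap, as did 2.25% of all genes. Isg15 was at 94.8 ± 26.5 against 156 ± 31.8 TPM (log2 fold change -0.73, adjusted p = 0.163), and Ifi27, the member without overlap, at 229 ± 33.7 against 326 ± 34.8 TPM (-0.51, adjusted p = 0.0598). Interferon gamma itself (Ifng) was listed at 0 in all 12 libraries. Genes of IL-6, JAK and STAT3 signalling leaned the other way, with 22 of 27 above 0, none called by limma and a median of 0.22. Of the 27, 7 lay above without overlap, against 4.35% of all genes. Stat3 was at 143 ± 7.69 against 123 ± 3.74 TPM (0.22, adjusted p = 0.0956), and Osmr, the oncostatin M receptor, at 11.1 ± 0.90 against 7.34 ± 1.17 TPM (0.55, adjusted p = 0.0697).

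Ribosomal protein and respiratory chain genes had medians slightly below 0, with none of them called by limma. For the large ribosomal subunit 45 of 48 genes were below 0, with a median of -0.15 and 8 below without overlap. For respiratory complex I 32 of 37 were below 0, with a median of -0.16 and 8 below without overlap. The share of all genes below without overlap was 2.25%. Ndufs6 was the complex I gene nearest to a call, at 80.5 ± 10.7 against 126 ± 15.5 TPM (log2 fold change -0.64, adjusted p = 0.0651). Cell cycle genes had a median of -0.02 over 34 genes, with Cenpv as the 1 member below without overlap, at 26.9 ± 3.56 against 45.2 ± 6.01 TPM (-0.73, adjusted p = 0.0535). Glycolysis genes had a median of 0.00 over 18 genes.

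The lists not yet described gave few calls, where 0.199% of all genes were called higher and 0.0199% lower. S100 proteins held 2 called genes of 8 tested (S100a8 and S100a9) around a median log2 fold change of 0.07, inflammatory mediators of the NF-kB pathway 1 of 27 (Slc2a6) around 0.14, and genes of metallothionein and oxidative stress 1 of 12 (Hmox1) around 0.15. Rhox5 was the 1 called gene of 4 tested X-linked homeobox and imprinted genes, where the median was -0.27. None of the tested genes was called by limma in the lists of eicosanoid enzymes (median 0.10), interferon gamma GTPases and chemokines (-0.13), the small ribosomal subunit (-0.12) and respiratory complexes III to V (-0.12). The same held for the small lists of other cell types. Their medians were -0.39 for NK cells and -0.31 for T cells, each over 1 tested gene, -0.14 for B and plasma cells, 0.26 for erythroid cells, -0.10 for mast cells and basophils, -0.06 for megakaryocytes and 0.07 for stromal and endothelial cells.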

How the data were processed

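GFP+ MLL-AF9 cells from the bone marrow of 4 WT, 4 Rag2-/- and 4 NSG mice were profiled by paired-end RNA-seq of poly-A RNA. The authors aligned reads to mm10 with HISAT2 on Galaxy, counted reads per gene and deposited TPM, in which gene counts are divided by gene length and scaled to 1000000 per library. The counting tool, the annotation and the gene lengths are not given in the sources used here. An unequal composition of libraries shifts all TPM of a library, which the scaling alternatives address.

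The table held 55401 gene identifiers, of which 55141 matched symbols, exon lengths and coordinates in GENCODE M21 (GRCm38). Groups came from the sample labels, which call the libraries biological replicates. Genes that averaged 1 TPM or more across the 8 Rag2-/- and NSG libraries were analysed as log2(TPM + 1) with limma 3.58.1 in R 4.3.3 (lmFit and eBayes with a trend) in a fit of all 12 libraries, and adjusted by Benjamini-Hochberg over 15090 genes. All adjusted p-values come from limma and are two-sided. Calls needed an adjusted p below 0.05 and a log2 fold change beyond 0.5. Non-overlap means that all 4 libraries of a host lay above all 4 of the other, and it was counted as a description.

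Every called gene was named, then members of 40 gene lists (774 entries, 610 tested, 152 below the limit on TPM, 12 without a match), called members first and then abundant or defining members. The members, lists and motifs were chosen with earlier results of these data known. Promoter windows came from RefSeq (GRCm38.p6). The fit was tested on simulated data for this comparison with 15090 genes and 200 changed genes. It recovered 93% of 2-fold and 98% of 4-fold changes, called 13 unchanged genes, and called 0 genes when none was changed. The changed genes were drawn only from genes at higher levels, and the simulated noise was independent between genes. These rates therefore do not cover genes at low levels or shifts of a whole library, and do not measure the reliability of the calls here.

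Depth was estimated from the value of 1 read on a gene of known length. Because 63.4 to 66.4% of values under 20 reads came out whole within 0.05 reads, read counts were not recovered and no count test was run. Alternatives varied the pseudocount, filter, scaling, libraries in the fit, replicate block, variance moderation, threshold and each library left out. Python 3.11.15 with pandas 2.3.3 was used for tables and matplotlib 3.10.9 for plots. Some genes of the lists are not reported here.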

Additional observations from a re-analysis of the deposited data

Results flagged for a closer look

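In 88 groups of 4 libraries, over the called genes and the sums of the main lists, the gap of the most distant library to its nearest neighbour was divided by the range of the group. The share was above Dixon's 95% critical value for 4 samples in 8 groups. For independent, normally distributed groups about 1 in 20, or 4.4, would be above it. These groups share libraries and the genes were selected by their calls, so 8 is not weighed against 4.4. Among Rag2-/- libraries, Retnlg was lowest in replicate 4 (share 0.8607, 18.2 TPM against 90.0 to 102 TPM), and so was the summed TPM of the tertiary granule and mature neutrophil list (0.8904). Axl was highest in Rag2-/- replicate 1 (0.912). Among NSG libraries, replicate 3 was the distant library for 4 values: it was lowest for Fn1 (0.8525) and for the summed macrophage list (0.8322), and highest for Vcan (0.923) and Rhox5 (0.8991). Hmox1 was lowest in NSG replicate 1 (0.9752).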

How the results depend on the processing

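The count of 30 genes called higher by limma fell to 15 with a pseudocount of 0.1, to 5 with all genes above 0, to 9 with median-ratio scaling, to 4 with the 8 libraries alone, to 5 with a replicate block and to 17 without a variance trend, and rose to 71 at an adjusted p below 0.1. Leaving out 1 library gave counts from 4, when Rag2-/- replicate 3 or NSG replicate 2 was dropped, up to 79 when NSG replicate 3 was dropped, and 78 when Rag2-/- replicate 4 was dropped. The 3 genes called lower became 1 with a pseudocount of 0.1, 0 with the replicate block and 19 at an adjusted p below 0.1. Leaving out 1 library gave counts from 0, on dropping Rag2-/- replicate 1, 2, 3 or NSG replicate 4, up to 15 on dropping Rag2-/- replicate 4, and 11 on dropping NSG replicate 3. Without a limit on the fold change 40 genes had an adjusted p below 0.05. The cause of these shifts in called genes was not tested. Genes without overlap ranged, with 1 library left out, from 657 to 1213 (without NSG replicate 1) for higher and from 339 to 825 (without NSG replicate 3) for lower. Dropping a compared library can only loosen that condition, and dropping a WT library cannot change it.

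Same-numbered libraries did not deviate together, with correlations of -0.0938, -0.0232, 0.0371 and -0.0763 for replicates 1 to 4. The labels do not say whether same-numbered libraries shared a harvest or preparation, and such correlations cannot settle it. Over the called genes and alternatives, 334 of 718 fits kept the call, 384 lost it and 0 reversed. In 8 of the 22 alternatives a list median cannot move, since they change the variance or the WT libraries and not the fold change. In the other 14, 551 of 559 list medians moved by less than the spread between replicates and 8 by more. The secondary granule median was 0.95, and the macrophage median 0.29, with 1 TPM required in each library. Genes under about 1 TPM rest on few reads at this depth.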

Other observations

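Among genes below the limit for testing, 29 were listed at 0 in all NSG libraries and above 0 in all Rag2-/- libraries, and 11 showed the opposite. The Rag2-/- libraries included the 2 deepest of the 8 by estimated reads and also the shallowest, replicate 3. The part of depth in these counts was not tested. Car1, carbonic anhydrase 1, was at 1.93, 1.26, 0.655 and 0.533 TPM in Rag2-/- replicates 1 to 4 and listed at 0 in all NSG and WT libraries. Cd7, a surface protein of T and NK lineages, was at 0.797, 0.554, 1.62 and 0.294 TPM in Rag2-/- replicates 1 to 4 and also at 0 in the NSG and WT libraries.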
